A study of Mus musculus with 10 samples.

Results

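The genes described here are 6 regulators of the step from the first gap phase of the cell cycle into DNA synthesis. They were chosen by name and Ensembl gene ID and not by a rule on measured values, but with earlier results of these data known. They are the Cip/Kip inhibitors of cyclin-dependent kinases (Cdk), Cdkn1a, Cdkn1b and Cdkn1c, and the D cyclins, Ccnd1, Ccnd2 and Ccnd3. All 6 were among the 27528 genes measured. RNA came from whole first molar tooth germs of wild type NMRI mouse embryos, an outbred stock, at the embryonic stages E13.5 (bud) and E14.5 (cap), with no treatment or genetic change in either group. Each stage had 5 samples on Affymetrix mouse exon arrays, each sample a pool of 12 to 18 germs, so epithelium, mesenchyme and the embryos of a pool are read together. In such bulk samples, more cells that express a gene and more RNA of it per cell cannot be told apart.

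D cyclins are made in response to growth signals, bind Cdk4 and Cdk6, and begin the phosphorylation of the retinoblastoma protein that lets a cell enter DNA synthesis. Cip/Kip proteins bind cyclin-Cdk complexes and hold the cell back, and they also help D cyclins assemble with their kinases. In the molar, the bud becomes a cap around the primary enamel knot, a cluster of epithelial cells that stop dividing, express Cdkn1a and send Shh, Fgf, Bmp and Wnt signals to the dividing cells around them.

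Values are log2 signals of a gene on an array, and a change is the E14.5 mean minus the E13.5 mean in log2 units, so that 1 unit is a doubling of signal. A gene was called changed where its Benjamini-Hochberg adjusted p over all genes, from limma, was under 0.05. Of all genes 7.85% were called, 4.36% as higher and 3.49% as lower at E14.5, and the median change of all genes was -0.01. Array medians lay between 5.06 and 5.22. The standard deviation of the values over genes was smallest on E14.5 replicate 4, at 1.51, and lay between 1.58 and 1.74 on the other arrays. That array held the lowest E14.5 signal for 5 of the 6 genes, all but Cdkn1c, and the change without it is given beside each of the 6 genes.

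Of the 6 genes, 2 were called changed, Cdkn1a and Ccnd1, both as higher at E14.5, beside the 7.85% of all genes called in either direction. Cdkn1a rose 1.93-fold and Ccnd1 1.25-fold in signal. The other 4 genes, 2 inhibitors and 2 D cyclins, gave changes between -0.06 and 0.13 with intervals that include 0. The Cdkn1a arrays of both stages did not overlap, which held for 8.84% of all genes in either direction and for 4.82% as higher at E14.5. No other gene of the 6 had stages without overlap.

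**Figure D1:**
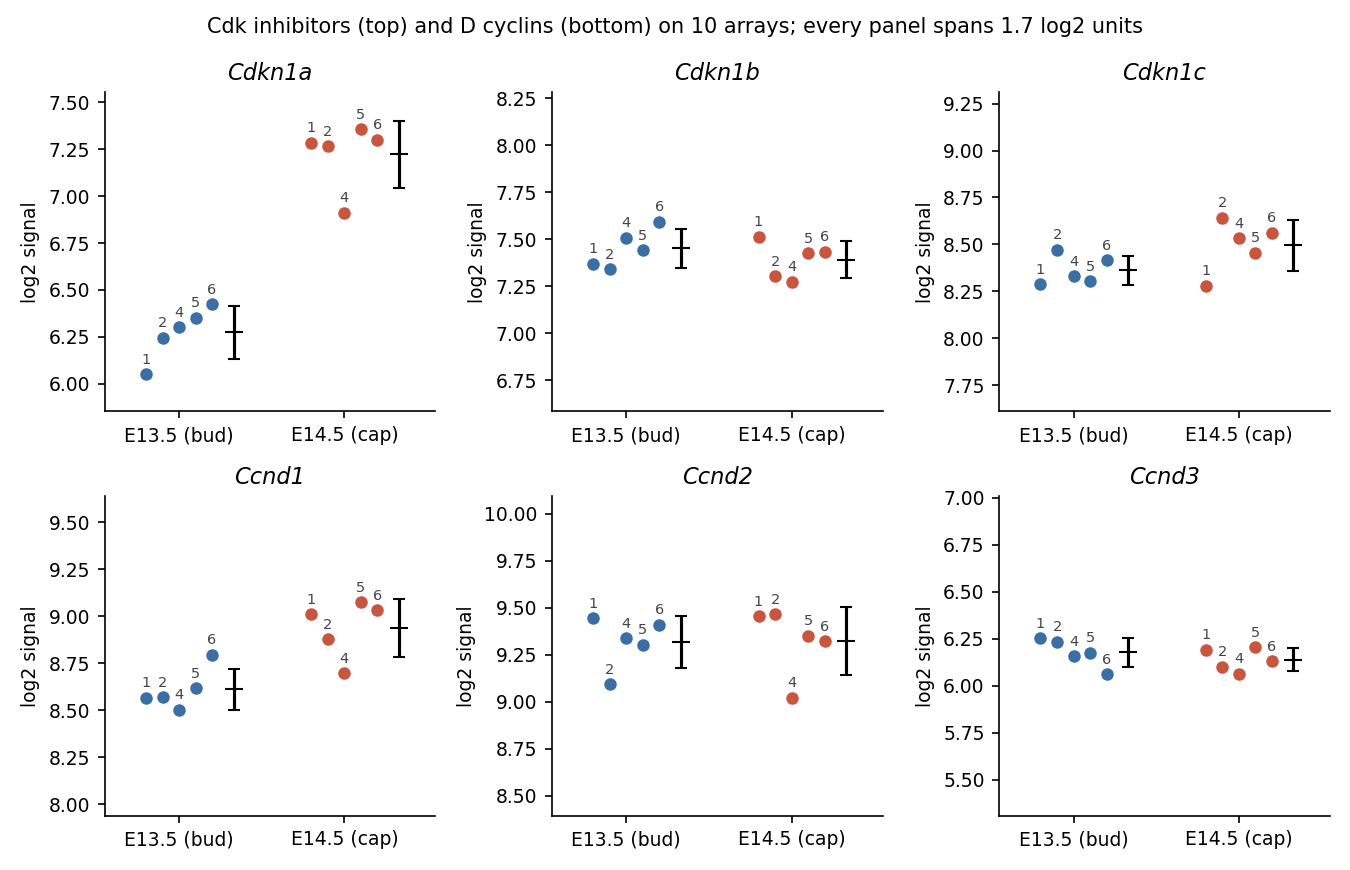
Log2 signal (vertical axes) of each of the 6 genes at both stages (horizontal axes), with 1 point per array labelled by its replicate number and the stage mean with SD as a black bar (n = 5). Cdkn1a lies between 6.05 and 6.42 at E13.5 and between 6.91 and 7.36 at E14.5, Ccnd1 overlaps through E13.5 replicate 6 and E14.5 replicate 4, and the other 4 genes overlap broadly.

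Cdkn1a (ENSMUSG00000023067) encodes p21, an inhibitor of Cdk2 complexes and the best known transcriptional target of p53. RefSeq (GRCm38.p6) lists more than 1 start for it, and the 250 bases before the start are shown for both windows given, since Cdkn1a had the largest change of the 6 genes, next to the window of Cdkn1b, an inhibitor that was not called. In the upstream window of Cdkn1a, chr17:29090729-29090978 on the plus strand, capitals mark a stretch at chr17:29090928-29090947 that differs in 1 letter from the p53 family consensus (a repeated element without a spacer, both strands searched). In the downstream window, chr17:29093519-29093768, and in the Cdkn1b window, chr6:134920151-134920400, both on the plus strand, capitals mark the GC box GGGCGG and the letters TATAA, either strand, which share no base there.
Cdkn1a upstream window: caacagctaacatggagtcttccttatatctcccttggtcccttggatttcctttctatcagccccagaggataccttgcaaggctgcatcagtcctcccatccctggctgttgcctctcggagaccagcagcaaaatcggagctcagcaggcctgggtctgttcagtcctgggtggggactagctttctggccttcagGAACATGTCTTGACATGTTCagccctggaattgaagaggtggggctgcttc
Cdkn1a downstream window: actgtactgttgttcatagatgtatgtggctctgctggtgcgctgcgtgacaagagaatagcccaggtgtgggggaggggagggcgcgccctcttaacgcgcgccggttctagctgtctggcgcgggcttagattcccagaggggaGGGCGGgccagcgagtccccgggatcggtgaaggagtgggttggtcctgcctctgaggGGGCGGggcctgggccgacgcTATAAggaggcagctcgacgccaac
Cdkn1b window: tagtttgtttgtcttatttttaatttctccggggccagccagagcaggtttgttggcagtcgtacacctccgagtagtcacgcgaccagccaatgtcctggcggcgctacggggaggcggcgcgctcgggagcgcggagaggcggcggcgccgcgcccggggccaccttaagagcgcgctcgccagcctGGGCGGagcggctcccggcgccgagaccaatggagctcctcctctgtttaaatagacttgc

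The p53 family stretch began 51 bases before the upstream start of Cdkn1a. A full match to the consensus was found in none of the windows of the 6 genes and in 0.00913% of all 32851 windows. A stretch with at most 1 letter off, a tolerance chosen after the Cdkn1a sequence had been seen, stood in 0.0700% of windows. The downstream Cdkn1a window held GGGCGG at 104 and 46 bases and TATAA at 25 bases before the start. The upstream Cdkn1a window had no GGGCGG and 1 match to TATAA, not marked in capitals, at 227 bases before its start. The Cdkn1b window held GGGCGG at 61 bases before the start. It had no TATAA. Of all windows, 32.7% hold GGGCGG on either strand and 22.8% hold TATAA. The motif CCAAT, which is in 33.8% of all windows, occurred in the Cdkn1b window and not in those of Cdkn1a. These are matches of letters, and no binding was measured. Both windows of Ccnd3 held GGGCGG on one strand or the other. Cdkn1c, Ccnd1 and Ccnd2 have no entry.

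The Cdkn1a signal was 6.05, 6.25, 6.30, 6.35 and 6.42 on the E13.5 arrays, replicates 1, 2, 4, 5 and 6 in that order. At E14.5 it was 7.28, 7.26, 6.91, 7.36 and 7.30 on the replicates of the same numbers. Every E14.5 array lay above every E13.5 array, and the gap between the nearest arrays was 0.49, although E14.5 replicate 4 lay below the rest of its stage. The mean rose from 6.27 ± 0.14 to 7.22 ± 0.18 (SD, n = 5 at each stage). The change was 0.95 (SE 0.0983, 95% interval 0.73 to 1.16), a 1.93-fold rise with an interval of 1.66 to 2.24. limma gave an adjusted p of 0.000111, and the exact two-sided permutation test gave p = 0.00794, the smallest that 5 arrays against 5 allow. Among all genes, 107 rose by more than Cdkn1a. Without E14.5 replicate 4 the change was 1.03 (adjusted p = 3.87e-05), and no array left out took away the call.

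Cdkn1b (ENSMUSG00000003031) encodes p27, which restrains Cdk2 and is removed by ubiquitin-dependent breakdown as cells enter DNA synthesis. Its signal was 7.37, 7.34, 7.51, 7.44 and 7.59 at E13.5 and 7.51, 7.30, 7.27, 7.42 and 7.43 at E14.5. The stages overlapped across most of their range, with the highest value at E13.5 and the lowest at E14.5. The change was -0.06 (SE 0.0728, 95% interval -0.22 to 0.10, adjusted p = 0.775), and -0.0323 without E14.5 replicate 4 (adjusted p = 0.881). The upper end of that interval is far below the lower end of the Cdkn1a interval, 0.73.

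Cdkn1c (ENSMUSG00000037664) encodes p57, an imprinted inhibitor expressed in many embryonic tissues as cells leave the cycle. Its signal was 8.29, 8.47, 8.33, 8.30 and 8.42 at E13.5 and 8.28, 8.64, 8.53, 8.46 and 8.56 at E14.5. On E14.5 replicate 1 it lay below every E13.5 array, while 3 of the E14.5 arrays lay above all of E13.5. The change was 0.13 (SE 0.0773, 95% interval -0.04 to 0.30), with an adjusted p of 0.412 and an exact two-sided permutation p of 0.111, so a rise of up to 0.30 lies inside the interval. Without E14.5 replicate 4 the change was 0.12 (adjusted p = 0.510).

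Ccnd1 (ENSMUSG00000070348), cyclin D1, is a widely used readout of growth factor and Wnt signalling. Its signal was 8.57, 8.57, 8.50, 8.62 and 8.79 at E13.5 and 9.01, 8.88, 8.69, 9.07 and 9.03 at E14.5. Of the E14.5 arrays, 4 lay above all E13.5 arrays, and E14.5 replicate 4 lay below E13.5 replicate 6. The mean rose from 8.61 ± 0.11 to 8.94 ± 0.15 (SD, n = 5 at each stage), a change of 0.33 (SE 0.0866, 95% interval 0.14 to 0.52) and 1.25-fold with an interval of 1.10 to 1.43. The adjusted p was 0.0395, close to the threshold, and the exact two-sided permutation p was 0.0159. Centring each array on its median left the change at 0.33 and moved the adjusted p to 0.131. Leaving out 1 array gave changes of 0.29 to 0.39, and the call was lost, at adjusted p up to 0.112, without any array other than E13.5 replicate 6 (adjusted p = 0.0253) or E14.5 replicate 4 (change 0.39, adjusted p = 0.0105).

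Ccnd2 (ENSMUSG00000000184), cyclin D2, gave 9.44, 9.09, 9.34, 9.30 and 9.41 at E13.5 and 9.45, 9.46, 9.02, 9.35 and 9.32 at E14.5. Each stage had 1 low array, E13.5 replicate 2 and E14.5 replicate 4, and the others lay between 9.30 and 9.46. The change was 0.01 (SE 0.0979, 95% interval -0.21 to 0.22, adjusted p = 0.990), and its sign turned with single arrays left out, from -0.0503 without E13.5 replicate 2 to 0.0809 without E14.5 replicate 4.

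Ccnd3 (ENSMUSG00000034165), cyclin D3, is best known from lymphoid and muscle cells. It gave 6.25, 6.23, 6.16, 6.18 and 6.06 at E13.5 and 6.19, 6.10, 6.06, 6.21 and 6.13 at E14.5. Its arrays lay closest together of the 6 genes, with a pooled SD within stages of 0.0683, and 3.65% of all genes had a smaller one. The change was -0.04 (SE 0.0614, 95% interval -0.17 to 0.10, adjusted p = 0.856), which leaves the narrowest interval of the 6. Without E14.5 replicate 4 the change was -0.0193 (adjusted p = 0.920).

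**Figure D2:**
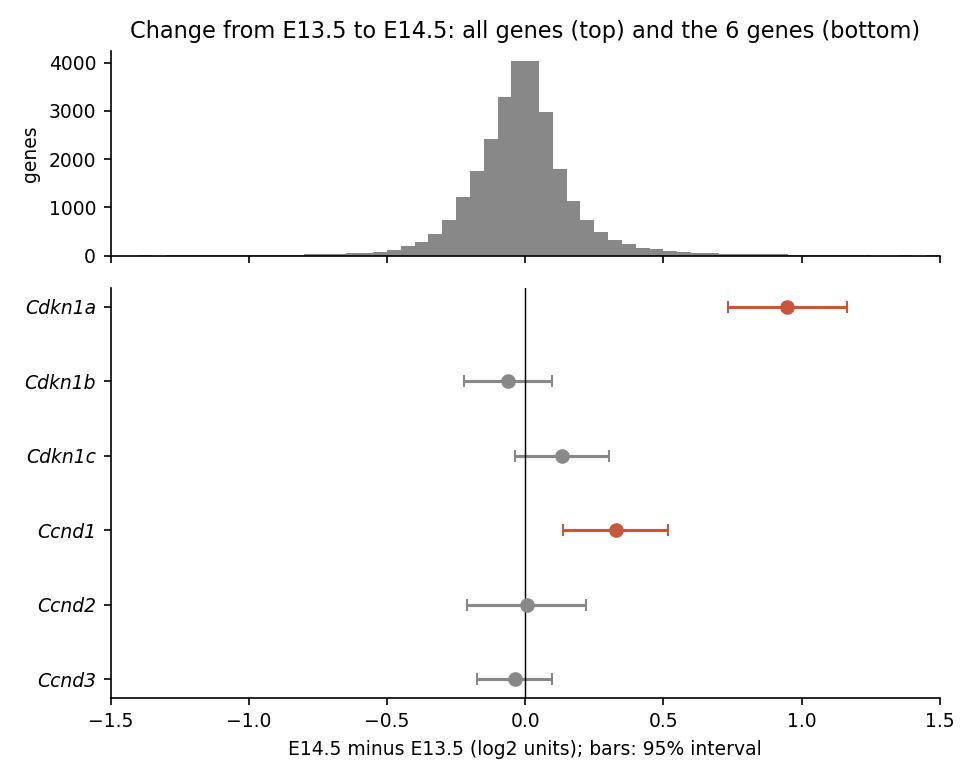
Top, number of genes (vertical axis) by change from E13.5 to E14.5 in log2 units (horizontal axis) over all 27528 genes; bottom, the change of each of the 6 genes on the same axis with its 95% interval, in red where called. Cdkn1a at 0.95 lies in the far right of the distribution of all genes, where 107 genes rose by more. Ccnd1 at 0.33 lies less far to the right, where 1244 genes rose by more, and the other 4 intervals include 0.

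Whether genes of a family changed unequally was tested on the difference between a pair of genes within each array, which cancels anything that adds the same amount to every gene of an array. The level of such a difference depends on how well the probes of each gene bind, so only its change between stages was read. There were 3 pairs of inhibitors and 3 of D cyclins, tested with the exact two-sided permutation test and adjusted over the 6 pairs. Cdkn1a minus Cdkn1b went from -1.18 ± 0.0942 to -0.17 ± 0.13, a change of 1.01 (exact p = 0.00794, adjusted p = 0.0238). Cdkn1a minus Cdkn1c went from -2.09 ± 0.13 to -1.27 ± 0.25, a change of 0.81 (exact p = 0.00794, adjusted p = 0.0238). In both pairs the stages did not overlap on any array, so Cdkn1a rose relative to each of the other inhibitors. Without E14.5 replicate 4 these changes were 1.06 and 0.90. Cdkn1b minus Cdkn1c changed by -0.19 (exact p = 0.135, adjusted p = 0.162). Without E14.5 replicate 1, the array with the lowest Cdkn1c signal, that change was -0.28 (exact permutation test, adjusted p = 0.0381).

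Among the D cyclins, Ccnd1 rose relative to both others. Ccnd1 minus Ccnd2 went from -0.71 ± 0.15 to -0.39 ± 0.13, a change of 0.32 (exact p = 0.0159, adjusted p = 0.0238). Ccnd1 minus Ccnd3 went from 2.43 ± 0.17 to 2.80 ± 0.10, a change of 0.37 (exact p = 0.0159, adjusted p = 0.0238). Ccnd2 minus Ccnd3 changed by 0.04 (exact p = 0.651, adjusted p = 0.651). Without E14.5 replicate 4 the changes of these pairs, in the same order, were 0.31, 0.41 and 0.10. With any 1 array left out, the adjusted p of the Ccnd1 pairs stayed at or under 0.0476 by the exact permutation test.

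**Figure D3:**
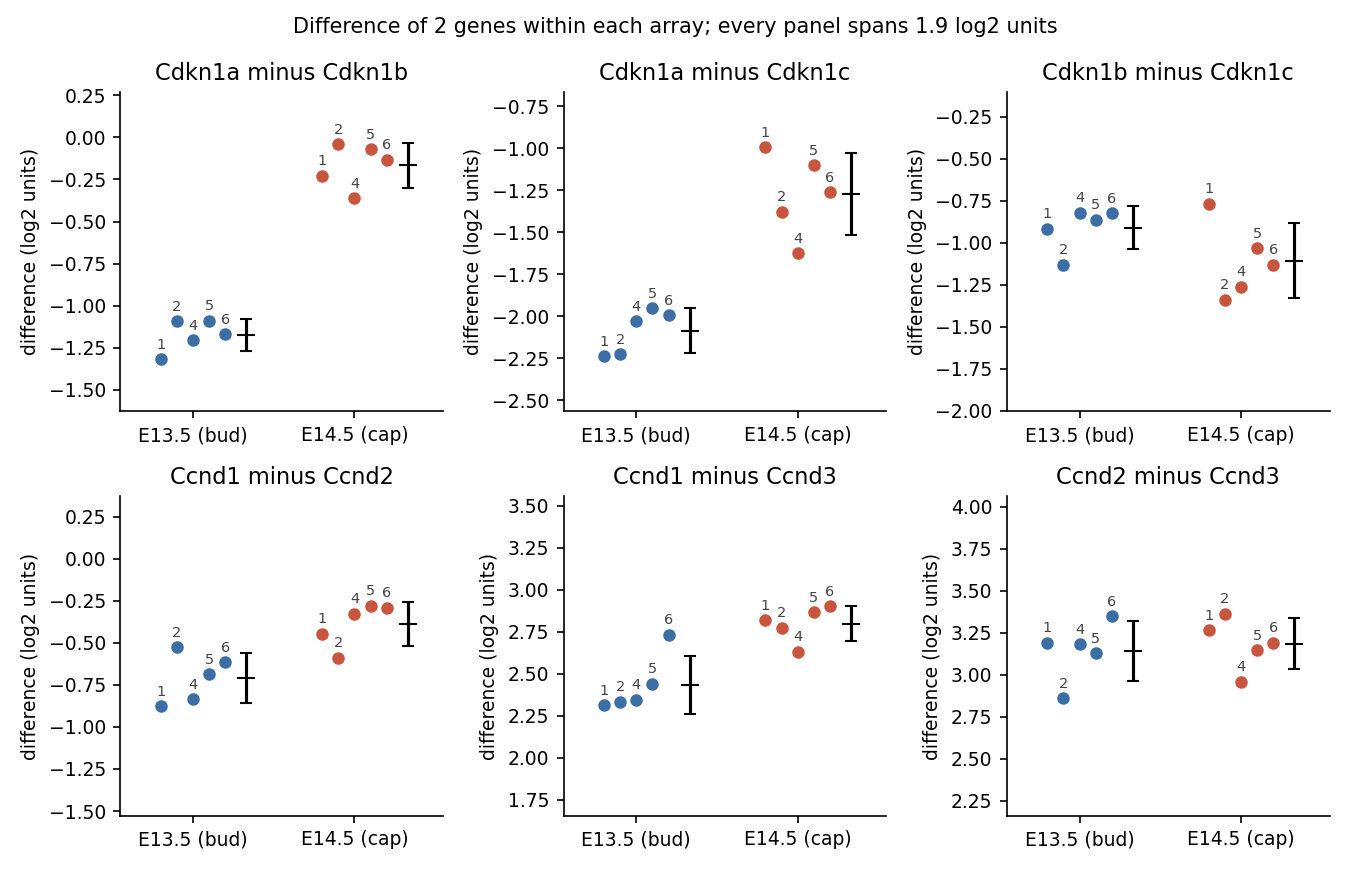
Difference between the log2 signals of a pair of genes on the same array (vertical axes, log2 units) at both stages (horizontal axes), with 1 point per array labelled by replicate number and mean with SD in black (n = 5). The Cdkn1a pairs separate fully by stage, the Ccnd1 pairs shift by 0.32 and 0.37 with 1 array of each stage crossing, and the remaining pairs overlap.

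Genes that act on the inhibitors and D cyclins, or are expressed with Cdkn1a in the enamel knot, were read from lists of names. Their counts stand beside the 7.85% of all genes called. Of the 15 enamel knot genes 10 rose, 1 fell and 4 were not called, with a median change of 0.81. Shh rose by 2.02, Fgf4 by 1.59, Wnt10a by 1.46 and Dkk4 by 1.18, each more than Cdkn1a. These are a Hedgehog ligand, a growth factor, a Wnt ligand and a Wnt antagonist. Wnt10b (0.88), Fgf3 (0.82), Bmp2 (0.81), Msx2 (0.77), Edar (0.72) and Slit1 (0.68) rose by less than Cdkn1a. Bmp4 fell by 0.56 (adjusted p = 0.000596). The genes not called were Fgf20 at 0.92 (adjusted p = 0.0549), Bmp7 at 0.54 (adjusted p = 0.0710), Lef1 at 0.26 (adjusted p = 0.111) and Fgf9 at -0.01 (adjusted p = 0.978). The first 3 of these are called under some other settings.

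The growth factor route, from receptors through Ras, Raf and Mapk to the early transcription factors that act on Ccnd1, had 2 of 16 genes called. That is 12.5%, beside 7.85% of all genes. Both were higher, and the list had a median change of 0.13. Jun, a subunit of the factor AP-1, rose by 1.03 (adjusted p = 0.00266). Its arrays overlapped, with E13.5 replicate 1 at 7.85 and the other E13.5 arrays between 6.97 and 7.26, and with E14.5 replicate 4 at 7.83 below the rest of its stage. Fgfr2, the receptor for several Fgf ligands in dental epithelium, rose by 0.55 (adjusted p = 0.000946). Of the 8 Wnt and Hedgehog factors, among them Lef1, 1 rose and 1 fell (25% called), with a median of 0.04. Tcf7, a partner of β-catenin, rose by 0.47 (adjusted p = 0.00345), and Gli3, which acts mainly as a repressor of Hedgehog targets, fell by 0.34 (adjusted p = 0.0381). Gli1, a target of Hedgehog signalling, gave -0.18 (adjusted p = 0.335) where the ligand Shh rose.

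None of the 10 genes for turnover and brakes, such as Gsk3b, which marks cyclin D1 for breakdown, was called by limma. The share called over all genes was 7.85%. At an unadjusted p under 0.05, limma and the exact permutation test each passed 2 of the 10. Cdkn2a, whose products act on Cdk4, Cdk6 and the p53 pathway, gave 0.01 (adjusted p = 0.975). The Bmp, Tgfb and p63 route, whose ligands and factors are known to act on Cip/Kip genes, had 8 of 19 genes called, 5 higher and 3 lower, with a median change of -0.07. The ligand Tgfb1 rose by 1.02 (adjusted p = 1.10e-05), and Bmp2 and Msx2, which are also enamel knot genes, by 0.81 and 0.77. Trp63, the p53 family factor of epithelia and also an epithelial marker, rose by 0.42 (adjusted p = 0.0136). The other called genes of this list, named after their values had been seen, were the ligand Tgfb2, which rose by 0.43, Smad9, which fell by 0.63, and Tgfbr1, a Tgfb receptor, which fell by 0.41. Bmp4, given above, was the remaining one. Of 47 core cell cycle genes, including the members themselves, 41 could not be tied to an ID, so the kinases, the other cyclins and the retinoblastoma family were not analysed here.

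**Figure D4:**
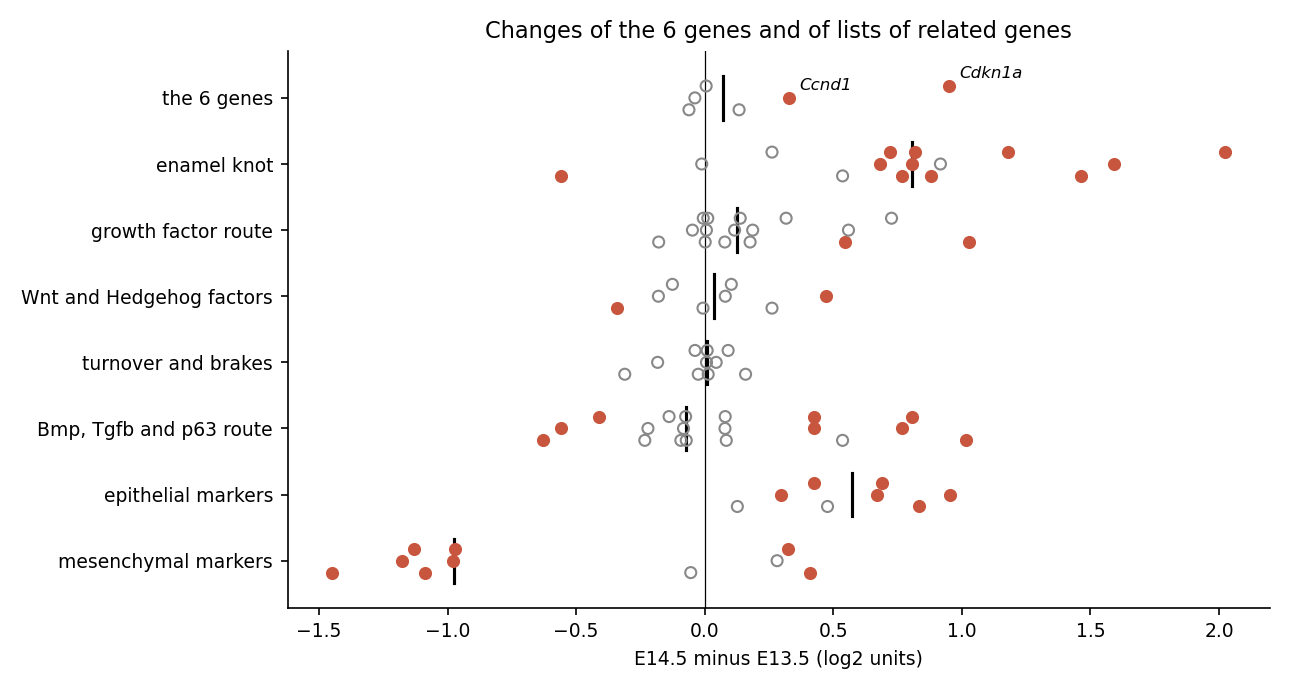
Change from E13.5 to E14.5 in log2 units (horizontal axis) of each gene of the 6 and of 7 lists (vertical axis), filled red where called and open where not, with the list median as a black line. Enamel knot genes have a median of 0.81 and epithelial markers 0.57, while the routes to the D cyclins and inhibitors have medians between -0.07 and 0.13.

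Markers of the tissues of the germ moved with the stage. Of 8 epithelial markers with an ID, 6 rose and none fell, with a median change of 0.57, and their mean signal went from 7.09 to 7.38 on the E13.5 arrays to 7.72 to 7.92 on the E14.5 arrays. Of 10 mesenchymal markers, 6 fell and 2 rose, with a median of -0.97, and their mean went from 8.26 to 8.38 down to 7.71 to 7.80. The 6 that fell were Msx1, Pax9, Barx1, Lhx6, Lhx8 and Pdgfra, while the matrix genes Dcn and Col1a1 rose. Markers of both tissues of a molar germ were measured at both stages, with mean signals above the array medians. None of 5 nerve and glia markers was called by limma, beside 7.85% of all genes. At an unadjusted p under 0.05 neither limma nor the exact test passed any of these markers. Of 7 bone and dentin genes 3 rose and 1 fell. Blood, endothelial and muscle markers had no ID here.

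Relative to the mean of the epithelial markers on the same array, Cdkn1a lay between -1.08 and -0.92 at E13.5 and between -0.81 and -0.47 at E14.5. The stages still did not overlap, and the mean difference was 0.39 higher at E14.5, next to 0.95 for the signal itself. Ccnd1 relative to that mean went from 1.32 ± 0.14 to 1.09 ± 0.10, a difference of -0.23, and the 4 other genes gave -0.62 to -0.43. The part of the epithelial share in the rises of Cdkn1a and Ccnd1 was not tested.

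The patterns most like each gene were sought among 399 genes with a symbol, by Pearson's r over the 10 arrays. Apart from members, these were genes of the study's tooth and pathway lists, so most of the 27528 genes were not compared. The r values are a description in which all points share the scale of their array and the stage difference. For Cdkn1a the closest were Edaradd (r = 0.987), an adaptor of the Eda receptor, Wnt10b (r = 0.976) and Fst (r = 0.976), the activin and Bmp antagonist follistatin. With the stage means taken out, r was 0.883, 0.672 and 0.860. For Ccnd1 they were Yap1 (r = 0.945), the Hippo pathway coactivator, Lef1 (r = 0.939) and Bmp2 (r = 0.936), and within stages r was 0.846, 0.867 and 0.855. Yap1 itself gave a change of 0.12 (adjusted p = 0.295).

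The 4 genes that were not called were matched over the same 10 arrays, stage difference included. Cdkn1b was closest to Sos1 (r = 0.895), Gsk3b (r = 0.861) and Sp4 (r = 0.837). Cdkn1c was closest to Pik3r2 (r = 0.809), Col1a1 (r = 0.800) and Dvl1 (r = 0.787), and with the stage means taken out r was 0.730, 0.747 and 0.691. Ccnd2 was closest to Nras (r = 0.896), Lnpep (r = 0.887) and Myb (r = 0.887). Ccnd3 had no pattern as close among the 399 genes, with Evc2 (r = 0.713) first, then Dkk3 (r = 0.673) and Cspg5 (r = 0.656). Among the 6 genes themselves, the closest pair was Cdkn1a and Ccnd1, an inhibitor and a cyclin, with r = 0.910 over the 10 arrays and 0.806 within stages. Cdkn1b, which was not called, gave within stages r = 0.731 with Ccnd1 and 0.707 with Cdkn1a, while every pair with Cdkn1c gave a negative r. Cdkn1a, Cdkn1b and Ccnd1 each had their lowest E14.5 signal on replicate 4.

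**Figure D5:**
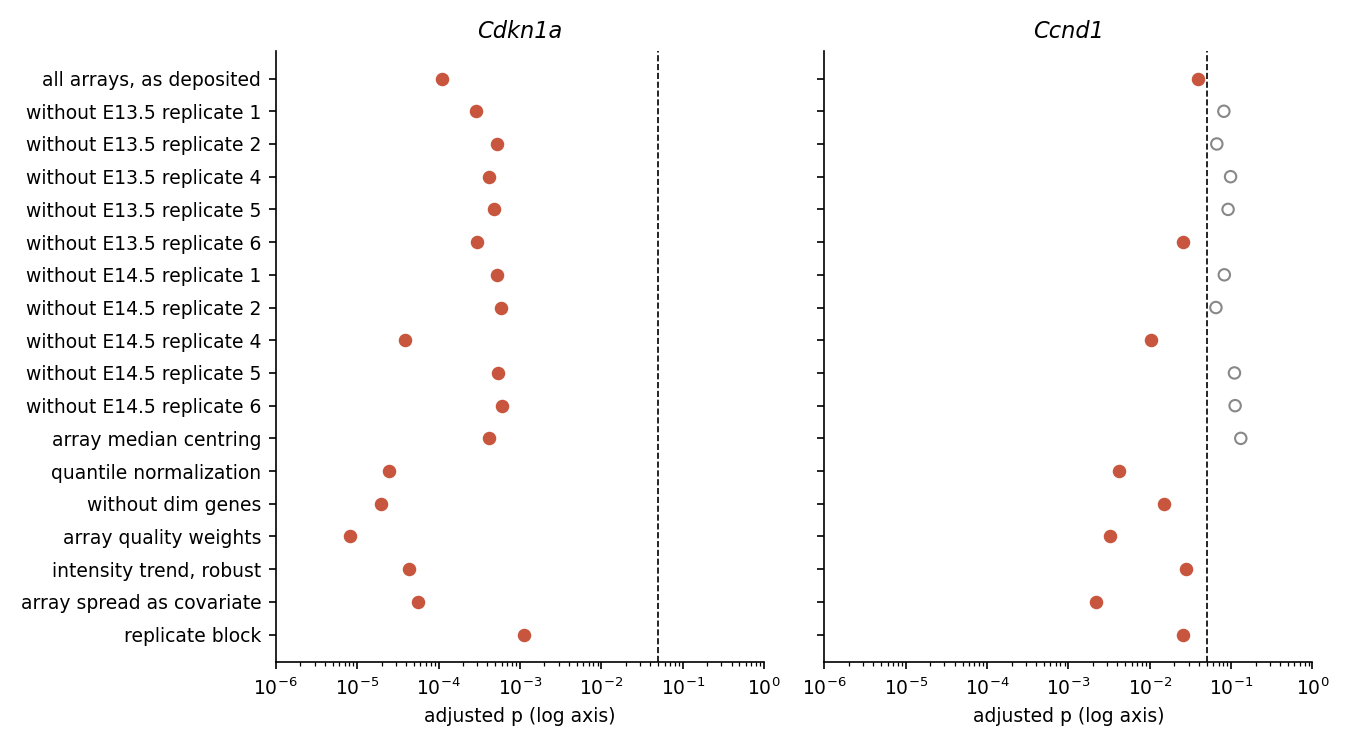
Adjusted p from limma (horizontal axes, log scale) for Cdkn1a and Ccnd1 under the settings named on the vertical axis, filled red under the threshold of 0.05 (dashed line) and open above it. Every point of Cdkn1a is left of the line, with the highest at 0.00114 for the replicate block, while Ccnd1 crosses it when arrays are centred or when any array but E13.5 replicate 6 or E14.5 replicate 4 is left out.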

How the data were processed

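Microarray data of mouse molar tooth germs were analysed, with 5 samples at each of E13.5 and E14.5. The authors normalized the gene signals with aroma.affymetrix, using the Brainarray custom CDF (version 23), and deposited 1 value per gene and array. These deposited values were read as log2 signals, since they ran from 1.30 to 12.83; the log base and the summary model are not given in the sources used here. Neither scanner output nor calls of detection were used here, and a scan batch could not be examined, and the number of arrays limits the precision.

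Stages were compared by limma (version 3.58.1, R 4.3.3; eBayes on a linear model of stage alone, two-sided) on all 27528 genes, with Benjamini-Hochberg adjustment and a threshold of 0.05. The fit was tested on simulated data, with values drawn independently for every gene and array. That test did not cover effects that the genes of an array share. Differences within arrays were tested by exact permutation, two-sided, with all 252 splits of the 10 arrays enumerated (Python 3.11.15, numpy 2.4.6, scipy 1.17.1, pandas 2.3.3, matplotlib 3.10.9). The p-values measure the spread between these pooled samples, which the methods describe as biological replicates.

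The 6 genes and the lists were chosen with earlier results of these data known. The text names the 6 genes, all enamel knot genes, the called genes with the 3 largest changes of each other route, Cdkn2a, Gli1, Trp63 and Bmp4, and the 3 genes most like each of the 6; Smad9, Tgfb2 and Tgfbr1 were added after their values had been seen, and cell type markers are named where their list moved with a result. Symbols came from the lists of the study, which pair 399 genes with IDs, 395 of them in the table. Promoter windows came from RefSeq (GRCm38.p6), which held 5 windows for 3 of the 6 genes; the array's build is not stated, so no gene coordinates are given. Alternatives covered the replicate number as a block, array scaling, a filter on dim genes, array weights, an intensity trend, a threshold of 0.01, and each array left out. The spread of each array as a covariate was added after seeing the data.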

Additional observations from a re-analysis of the deposited data

Results flagged for a closer look

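On E14.5 replicate 4, Cdkn1a had a signal of 6.91, while the other 4 E14.5 arrays lay between 7.26 and 7.36. The gap to the nearest array was 0.793 of the range of the stage, above the 0.71 that Dixon's test sets for 5 values. After quantile normalization the gap was 0.711 of the range and after median centring 0.724. Of 54 sets of 5 arrays examined this was the only one to stand apart, where chance gives about 2.7. Without the array, Cdkn1a rose by 1.03 in place of 0.95.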

How the results depend on the processing

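Cdkn1a was called under every alternative run, with changes of 0.89 to 1.03, and Cdkn1b, Cdkn1c, Ccnd2 and Ccnd3 under none. Ccnd1 lost its call with median centring (0.33, adjusted p = 0.131), leaving 1 of the 6 genes called there, 1 at a threshold of 0.01 and 1 to 2 with single arrays left out, where the Ccnd1 change was 0.29 to 0.39, that of Ccnd2 -0.0503 to 0.0809, of Ccnd2 minus Ccnd3 -0.0266 to 0.10 and of Cdkn1b minus Cdkn1c -0.28 to -0.14. All genes called numbered 3911 with array weights, 1155 at 0.01 and 1479 to 2554 with single arrays left out, against 2162. The growth factor route had 4 genes called without dim genes, 6 with array weights and 2 to 4 with arrays left out; the Wnt and Hedgehog factors had 1 with centring, 1 at 0.01 and 1 to 2 with arrays left out; turnover and brakes had 1 with array weights and 0 to 1 with arrays left out. Fgf9, not called, turned to 0.0275 under quantile normalization and ranged from -0.0915 to 0.0393 with arrays left out; the causes were not tested. Of 17 alternative fits, Fgf20 gained a call in 8, Bmp7 in 6 and Lef1 in 5.

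Same-numbered arrays of both stages deviated together with r from -0.08 to 0.51, and 2 of 5 E13.5 and 3 of 5 E14.5 arrays correlated best with their own number. Not every pair was above 0.1, so the numbers were not taken to pair the samples, and whether some share more than a number was not settled. With the replicate number as a block 2077 genes and 2 of the 6 were called. The paired sign-flip test over 5 numbers cannot go below p = 0.0625, so its exact adjusted p for the pairs was 0.125 (Cdkn1a minus Cdkn1b, 1.01; Cdkn1a minus Cdkn1c, 0.81; Ccnd1 minus Ccnd3, 0.37) and 0.15 (Ccnd1 minus Ccnd2, 0.32) by construction.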
